A study of Mus musculus with 49 samples.

Results

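The genes of MHC class II presentation were followed through a time course of arthritis transferred with arthritogenic serum. The set held 9 genes, named by their role on this route. They are H2-Aa, H2-Ab1 and H2-Eb1, which encode class II chains, Cd74, H2-DMa, H2-DMb1, H2-Oa, H2-Ob and Ciita. All 9 were measured, among 8251 genes on the array. Each gene was read from the probe set annotated to it alone with the highest mean over the 49 arrays. H2-DMa had a second probe set.

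The recipients were male B6 mice of 6 weeks, and the groups carried no other allele or agent than the serum. Synovial fluid cells made up 13 arrays, with 3 from day 3 after the first injection of serum, 4 from day 7, 3 from day 12 and 3 from day 18. Whole ankle made up 19 arrays, with 4 before serum (day 0), 2 from day 1, 3 from day 3, 4 from day 7, 3 from day 12 and 3 from day 18. Blood leukocytes made up 17 arrays, with 3 from each of days 0, 1, 3, 7 and 12 and 2 from day 18. Fluid had mostly been taken during dissection (9 arrays), ankle RNA went through 2 rounds of amplification, and blood was freed of red cells by lysis. The values are probe set intensities after RMA, a procedure that corrects background, quantile normalizes and summarises probes, and they are given here on the log2 scale.

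Class II molecules are surface proteins that show peptides from the endosomal pathway to CD4+ T cells. They are best known from B cells, dendritic cells and macrophages. The alpha and beta chains assemble on the invariant chain, Cd74, which blocks the peptide groove and steers the complex to endosomes. There the cathepsins cut Cd74 away, H2-DM exchanges the remaining fragment for other peptides, and H2-DO, found mainly in B cells, restrains H2-DM. The coactivator Ciita is recruited by factors bound to the X and Y boxes of class II promoters, and interferon gamma is a known inducer of it. In K/BxN mice, the source of the serum in this model, class II presentation to T cells starts the disease, whereas serum transfer to healthy recipients carries the antibodies past that step.

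The X and Y boxes are a known feature of class II promoters, so the stretch before the start site is shown for the 5 members in which both were found by letters. Sequences are from RefSeq on GRCm38.p6, read 5′ to 3′ on the gene's own strand and covering the 100 bases before the start, with GNAAC (X) and GATTGG (Y) in capitals.
H2-Aa: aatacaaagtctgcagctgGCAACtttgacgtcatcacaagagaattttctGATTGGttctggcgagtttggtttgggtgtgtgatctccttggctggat
H2-Eb1: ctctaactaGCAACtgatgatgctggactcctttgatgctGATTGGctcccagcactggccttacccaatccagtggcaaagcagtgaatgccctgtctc
H2-DMb1: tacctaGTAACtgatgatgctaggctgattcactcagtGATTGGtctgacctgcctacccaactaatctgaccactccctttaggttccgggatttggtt
H2-Oa: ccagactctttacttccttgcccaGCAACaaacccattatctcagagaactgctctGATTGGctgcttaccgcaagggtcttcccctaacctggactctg
H2-Ob: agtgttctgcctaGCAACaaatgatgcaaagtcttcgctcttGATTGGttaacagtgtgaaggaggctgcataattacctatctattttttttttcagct
These windows lie at chr17:34287824-34287923 on the minus strand for H2-Aa and on the plus strand at chr17:34305767-34305866 for H2-Eb1, chr17:34153091-34153190 for H2-DMb1, chr17:34092279-34092378 for H2-Oa and chr17:34238805-34238904 for H2-Ob.

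The first letter of the X box stood 29 bases before the first letter of the Y box in H2-Ob, 31 bases before it in H2-Eb1 and 32 bases before it in H2-Aa, H2-DMb1 and H2-Oa. The letters and the accepted distance of 28 to 34 bases were set with these promoters in view. Of 32851 RefSeq promoter windows of 300 bases (250 before the start and 50 after it), 16.1% held GATTGG on either strand. The spaced pair was held by 0.432% on either strand and by 0.204% on the gene's own strand. Promoters of 6 members were matched in the table, and 5 of them held the pair on the gene's own strand. The windows of H2-DMa, at 2 start sites, held no pair on that strand. Of the further class II genes that are no members, H2-Eb2 held the pair on its own strand as well. H2-DMb2 held GATTGG but no pair there.

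As a floor for detection, the 95th percentile of 34 negative control probe sets was used, a log2 value of 6.85. H2-Aa, H2-Ab1, H2-Eb1, H2-DMa, H2-DMb1 and Cd74 had means above it in all 16 groups of tissue and day. The inhibitor chains stood apart, with H2-Ob above it in the 6 blood groups and H2-Oa in those and in 2 of the fluid groups. Ciita was above it in 0 groups. The related genes H2-Ea and H2-Eb2 were within background on every array, at 4.30 or below for H2-Ea and 4.31 or below for H2-Eb2. B6 mice are known to carry a defective H2-Ea, the partner of the H2-Eb1 chain.

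Blood leukocytes had the highest median of all 9 genes. Synovial fluid cells lay between blood and ankle for the class II chains, Cd74 and the H2-DM chains, and close to ankle for H2-Oa, H2-Ob and Ciita. H2-Aa, the alpha chain of the I-A molecule, lay between 9.31 and 11.83 (median 10.76) in 13 fluid arrays, between 8.80 and 10.63 (median 9.48) in 19 ankle arrays and between 11.33 and 12.50 (median 11.77) in 17 blood arrays. Cd74 lay between 7.57 and 9.66 (median 8.28) in fluid, between 7.15 and 8.36 (median 7.55) in ankle and between 9.77 and 10.64 (median 10.31) in blood. Every fluid and ankle array was thus below every blood array for Cd74, while some fluid arrays reached blood levels for H2-Aa.

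**Figure D1:**
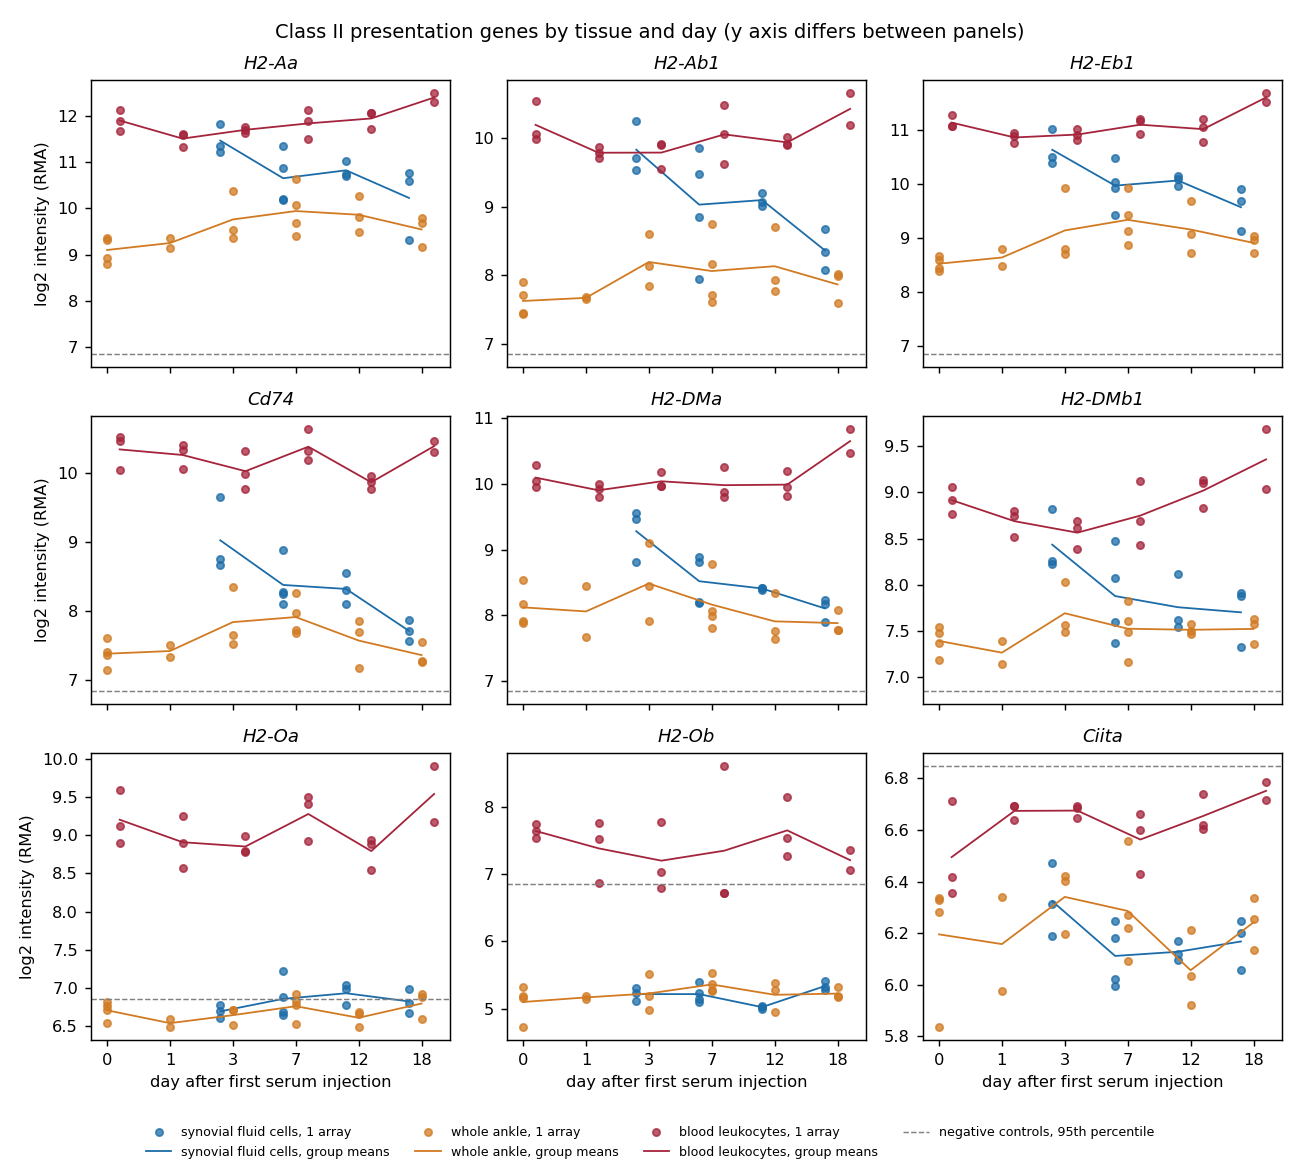
Log2 intensity of the 9 genes (y axis, with its own range in each panel) against the day after the first serum injection (x axis, days evenly spaced) in synovial fluid cells, whole ankle and blood leukocytes. Points are arrays, lines join group means, and the dashed line is the negative control level of 6.85, below which every Ciita array sits. For H2-Aa, H2-Ab1, H2-Eb1 and Cd74 the blood means are highest, except for H2-Ab1 at day 3 (9.83 in fluid and 9.79 in blood), and the fluid means are higher than the ankle means on each shared day, whereas for H2-Oa and H2-Ob fluid and ankle lie together near or below the dashed line.

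Against blood, all 9 genes were lower in synovial fluid cells, taking fluid minus blood within each of days 3, 7, 12 and 18 and averaging over the 4 days. In this comparison 58.8% of all genes passed the test (limma, Benjamini-Hochberg adjusted p under 0.05 over 8251 genes), 34.0% as lower and 24.8% as higher, so the count has a high background. The median difference of the 9 genes was -1.18, against -0.08 over all genes. Tissue and preparation cannot be told apart here, since each tissue was prepared in its own way. In these bulk samples, fewer cells of a type and less RNA per cell cannot be told apart either.

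H2-Oa and H2-Ob, the chains of H2-DO, had fitted log2 differences of -2.29 ± 0.11 (SE) and -2.16 ± 0.17. Averaged over the 4 days, their fluid means were under the negative control level, so these values do not measure the size of the difference. By day, H2-Oa in fluid was just above that level at day 7 (6.86) and day 12 (6.93). Cd74 differed by -1.81 ± 0.12, which is 3.50-fold lower, and H2-DMa, a chain of the peptide exchange factor, by -1.59 ± 0.10, which is 3.01-fold lower. On the second probe set of H2-DMa the tissues lay closer. Its medians over all arrays were 7.48 in fluid and 8.53 in blood, against 8.42 and 9.97 on the main probe set. The class II chains differed by -1.18 ± 0.15 for H2-Aa, -1.10 ± 0.11 for H2-Eb1 and -0.97 ± 0.16 for H2-Ab1. H2-DMb1, the other H2-DM chain, differed by -0.98 ± 0.13. The coactivator Ciita differed by -0.48 ± 0.06, within background. Differences were not tested between members. The limma adjusted p of the 9 genes lay between 4.77e-16 (H2-Oa) and 9.08e-06 (H2-Ab1). Arrays of H2-DMa, H2-Oa, H2-Ob and Cd74 did not overlap between fluid and blood, as was the case for 4.86% of all genes in this direction, and those of the other 5 members overlapped. Over the 4 days in order, the H2-Ab1 difference was 0.04, -1.02, -0.84 and -2.07, and that of H2-DMa was -0.76, -1.46, -1.58 and -2.55. The day 3 difference was the smallest for 7 of the 9 members, H2-Oa and H2-Ob being the exceptions.

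**Figure D2:**
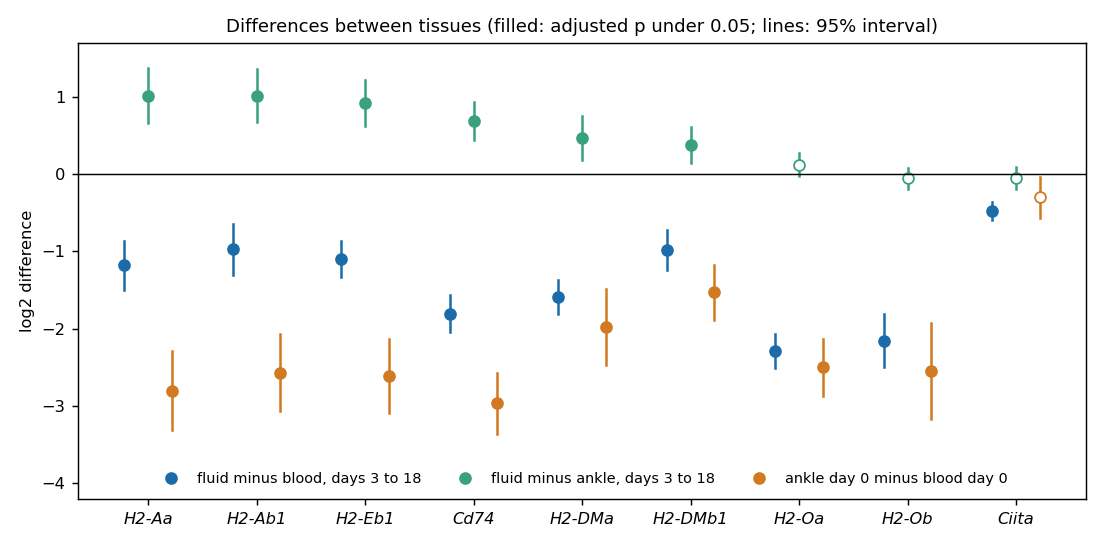
Log2 differences of the 9 genes (y axis) for synovial fluid minus blood (13 and 11 arrays), synovial fluid minus ankle (13 and 13 arrays) and ankle day 0 minus blood day 0 (4 and 3 arrays). Circles are limma estimates, filled where the adjusted p was under 0.05, and lines are 95% intervals. Against blood all fluid values are below 0, against ankle 6 are above 0 and those of H2-Oa, H2-Ob and Ciita are close to 0.

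Against ankle, 6 of the 9 genes were higher in synovial fluid cells, in a comparison where 38.1% of all genes passed the test and 18.7% passed it as higher. H2-Ab1 was higher by 1.02 ± 0.17, H2-Aa by 1.01 ± 0.17 and H2-Eb1 by 0.92 ± 0.15, which are 2.02-fold, 2.02-fold and 1.90-fold. Cd74 was higher by 0.69 ± 0.12, H2-DMa by 0.47 ± 0.14 and H2-DMb1 by 0.38 ± 0.11. The limma adjusted p of these 6 lay between 7.4e-06 (H2-Eb1) and 0.00842 (H2-DMb1), and their arrays overlapped between the tissues. Averaged over both of its probe sets, H2-DMa was higher by 0.25 (adjusted p = 0.0449). H2-Oa differed by 0.12 (95% interval -0.02 to 0.27), H2-Ob by -0.06 (-0.20 to 0.08) and Ciita by -0.05 (-0.19 to 0.09), all 3 at or within background in both tissues. The ratio of 3′ to 5′ beta-actin control signal, a measure of RNA length, was higher in ankle (log2 2.73 to 4.25) than in much of the fluid (1.59 to 3.61). With this ratio as a covariate 3 of the 9 genes passed, namely H2-Ab1, H2-Eb1 and Cd74, and H2-Aa (adjusted p = 0.108), H2-DMa (0.11) and H2-DMb1 (0.693) did not.

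At day 0, before serum, ankle was below blood in 8 of the 9 genes, where 42.2% of all genes passed the test and 19.8% passed it as lower. Cd74 read 7.42, 7.61, 7.37 and 7.15 in ankle, against 10.05, 10.53 and 10.46 in blood. All 4 ankle arrays were far below the 3 blood arrays, with a difference of -2.96 ± 0.19 (7.79-fold, limma adjusted p = 1.43e-13). H2-Aa differed by -2.80 ± 0.25, H2-Eb1 by -2.61 ± 0.24, H2-Ab1 by -2.57 ± 0.24, H2-DMa by -1.98 ± 0.24 and H2-DMb1 by -1.53 ± 0.17. H2-Oa (-2.50 ± 0.18) and H2-Ob (-2.55 ± 0.30) were within background in ankle, so their sizes are not measured. Ciita, within background in both tissues, did not pass (-0.30 ± 0.13, adjusted p = 0.0608). It did pass in 11 of 19 alternative settings, among them array weights (limma adjusted p = 0.0119).

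Summed marker intensities of B cells and of monocytes and macrophages differed strongly between the tissues, whereas those of dendritic cells overlapped. Of 11 measured B cell markers, 10 were above the negative control level in blood, 3 in fluid and 2 in ankle, and their summed intensity was 828.6 to 1228 in fluid, 693 to 1038 in ankle and 8156 to 12362 in blood. All 11 were lower in fluid than in blood and all 11 lower in ankle day 0 than in blood day 0. Ms4a1, which encodes CD20, lay between 5.73 and 7.13 in fluid, between 6.10 and 7.25 in ankle and between 10.63 and 11.73 in blood. Cd79b, a chain of the B cell receptor, lay between 5.83 and 6.72 in fluid, between 5.94 and 6.90 in ankle and between 10.47 and 11.48 in blood. Other markers of the list had higher levels outside blood than Ms4a1 and Cd79b had there, though their medians there were still below those in blood. Blnk, an adaptor of B cell receptor signalling, lay between 7.07 and 8.81 in fluid, 6.15 and 7.64 in ankle and 8.17 and 9.67 in blood. Ighm, the IgM heavy chain, lay between 6.84 and 7.71 in fluid, 6.96 and 8.15 in ankle and 10.77 and 11.78 in blood. Both were above the negative control level in fluid and ankle by their medians, while Ms4a1 and Cd79b were below it.

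Markers of monocytes and macrophages ran the other way. Their summed intensity over 14 genes was 14153 to 24309 in fluid, 4147 to 7114 in ankle and 2617 to 5687 in blood, and 13 of 14 were higher in fluid than in blood, the exception being Ly86, which was lower. Against ankle, 13 of 14 were higher in fluid and Mrc1 did not pass. Cd68 lay between 9.54 and 11.05 in fluid, between 7.47 and 8.47 in ankle and between 6.39 and 7.75 in blood. The 7 measured dendritic cell markers summed to 962 to 1299 in fluid, 792 to 1352 in ankle and 1110 to 1395 in blood. Of these, 3 were higher and 2 lower in fluid than in blood, and 2 were higher and 3 lower in fluid than in ankle. Itgax, which encodes CD11c, was higher in fluid than in both, by 0.43 ± 0.09 against blood and by 1.06 ± 0.10 against ankle. The part of these cell types in the class II values was not tested.

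**Figure D3:**
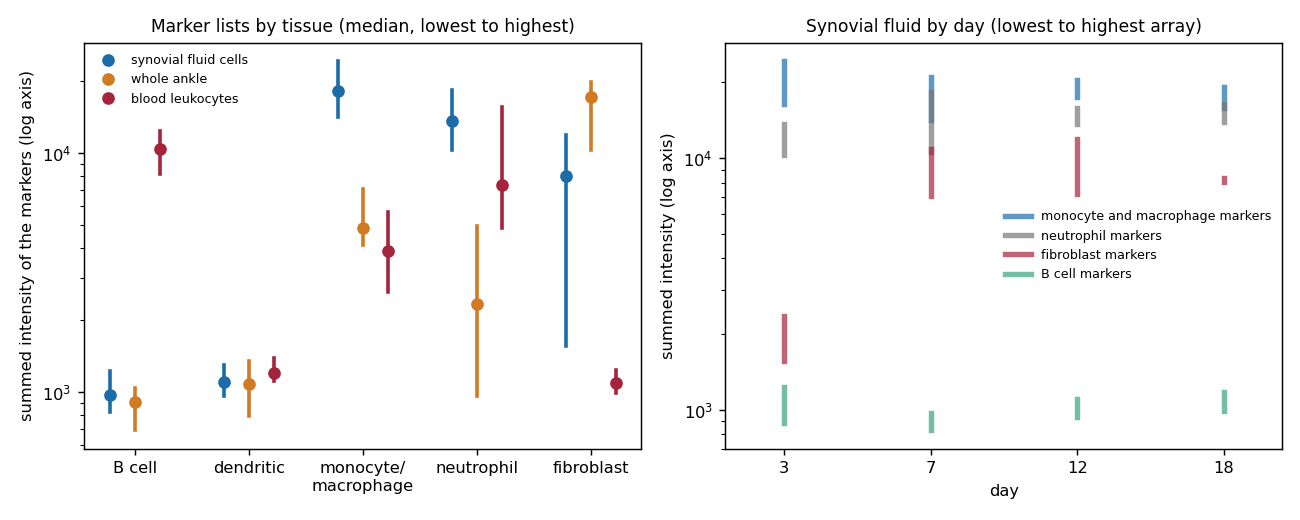
Summed intensity of marker lists on a log axis. Left, by list (x axis) for synovial fluid, ankle and blood, with the median as a point and a line from the lowest to the highest array. Right, synovial fluid by day, with bars from the lowest to the highest array. B cell markers have medians of 970 in fluid, 910 in ankle and 10387 in blood, monocyte and macrophage markers are highest in fluid, and fibroblast markers in fluid are lower at day 3 than on the later days.

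The genes that act before and after class II on the same route did not follow one direction. The 8 genes of endosomal processing were all higher in fluid than in blood, with a median difference of 2.40, and 7 of 8 were higher in fluid than in ankle. Ctsl, a cathepsin that can degrade Cd74, was higher in fluid than in blood by 5.11 ± 0.18, Ctsb by 3.14 ± 0.11, Ctsd by 2.25 ± 0.10 and the endopeptidase Lgmn by 3.51 ± 0.18. By their medians in blood, Ctsl (6.51), Lgmn (5.66) and Ctsz (6.81) were under the negative control level. The sizes of their differences from blood are therefore not measured. The protease genes and the class II genes thus differed between fluid and blood in opposite directions. Cst3, a cathepsin inhibitor, was the gene that did not differ from ankle past the threshold (0.12, adjusted p = 0.517).

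Class I presentation, which serves CD8+ T cells, was measured in 9 genes. Of these, 7 were lower in fluid than in blood and 7 higher in fluid than in ankle, and all 9 were lower in ankle than in blood at day 0. Psmb9, a subunit of the immunoproteasome, differed by -1.04 ± 0.14 from blood and by 1.02 ± 0.14 from ankle. For Psmb9, as for the class II chains, fluid thus lay between ankle and blood.

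Of 8 measured factors that bind or modify class II promoters, 1 was higher and 5 were lower in fluid than in blood, and 2 were higher in fluid than in ankle. Nfya, a subunit of the Y box factor with means within background, was higher than in blood by 0.42 ± 0.10, and Crebbp, a coactivator, was lower by 0.73 (log2 difference -0.73 ± 0.10). Among 13 measured genes of interferon gamma and other signals acting on Ciita, 4 were higher and 5 lower in fluid than in blood, shares near the 24.8% and 34.0% of all genes, and 10 were higher in fluid than in ankle. Ifng itself was within background in every tissue, between 2.54 and 2.80 in fluid, 2.50 and 2.90 in ankle and 3.49 and 4.58 in blood. Irf8, a transcription factor of myeloid and B cells, lay between 8.49 and 9.49 in fluid, 6.87 and 7.99 in ankle and 9.38 and 10.60 in blood, so that fluid was above every ankle array and overlapped the low end of blood.

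Of 4 measured genes of class II traffic and costimulation, all 4 were higher in fluid than in ankle, and 2 were higher and 2 lower in fluid than in blood. By their medians in ankle, all 4 were under the negative control level (Cd80 4.12, Cd86 5.16, Cd83 5.72, Cd40 6.11). The sizes of their differences from ankle are therefore not measured. In fluid, Cd80 (4.66), Cd86 (6.00) and Cd40 (6.59) were under that level too, and Cd83 (6.87) was close to it. Cd86, a ligand of CD28 on T cells, had a mean of 6.26 in fluid, within background, and was higher in fluid than in ankle by 1.096 ± 0.08 and than in blood by 0.93 ± 0.08. Cd83, which protects class II molecules from turnover, was higher than in ankle by 1.23 ± 0.15 and lower than in blood (log2 difference -0.61 ± 0.15).

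In synovial fluid at day 18 against day 3, 3 of the 9 genes were lower past the threshold, namely Cd74, H2-DMa and H2-Ab1, where 3.19% of all genes passed and 0.909% passed as lower. None of the 3 calls held with every array left out in turn. Cd74 read 7.57, 7.87 and 7.71 at day 18, against 8.76, 9.66 and 8.67 at day 3. The groups did not overlap, and the difference was -1.31 ± 0.26 (2.48-fold, limma adjusted p = 0.01). H2-DMa read 7.90, 8.24 and 8.18 at day 18, against 9.47, 9.57 and 8.81 at day 3, a difference of -1.18 ± 0.24 (2.26-fold, adjusted p = 0.0119). H2-Ab1 read 8.07, 8.67 and 8.34 at day 18, against 9.71, 10.25 and 9.54 at day 3, a difference of -1.47 ± 0.37 (2.77-fold, adjusted p = 0.0416). Every day 18 array of these 3 genes was below every day 3 array. The H2-Ab1 call was also lost with median centring (adjusted p = 0.055) and with a floor under low values (adjusted p = 0.119). On its second probe set H2-DMa read 7.23, 7.48 and 7.50 at day 18, against 8.02, 7.62 and 7.44 at day 3, with overlap. Averaged over both probe sets the H2-DMa difference was -0.73 (adjusted p = 0.0453).

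The other class II chains and H2-DMb1 pointed the same way without passing. H2-Eb1 differed by -1.06 ± 0.28 (adjusted p = 0.0512), H2-Aa by -1.24 ± 0.38 (adjusted p = 0.0966) and H2-DMb1 by -0.73 ± 0.28 (adjusted p = 0.213), all 3 with no overlap. In all, 6 of 9 members were lower without overlap, against 13.1% of all genes. H2-Oa (0.13), H2-Ob (0.12) and Ciita (-0.16), all within or near background, had 95% intervals that held 0. Array day 3 replicate 2 had the highest value of H2-Aa, H2-Ab1, H2-Eb1, H2-DMa, H2-DMb1 and Cd74 in the fluid, and day 18 replicate 1 was the lowest of its day in those 6 genes. Without day 3 replicate 2, 0 of the 9 genes passed, with Cd74 at an adjusted p of 0.0513, and without day 18 replicate 1, 0 passed as well, with Cd74 at -1.24 (adjusted p = 0.0621). Each of the other 4 arrays left out gave 2, namely Cd74 and H2-DMa, with H2-Ab1 lost. Over the 9 arrays isolated during dissection alone 0 of 9 passed, with Cd74 at -1.44 (adjusted p = 0.0545).

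At day 7 and day 12 against day 3, limma called 0 of the 9 genes, where 2.56% and 2.70% of all genes passed, and 5 and 3 members had an unadjusted p under 0.05. Cd74 differed by -0.65 ± 0.25 at day 7 and by -0.71 ± 0.26 at day 12. H2-DMa differed by -0.76 ± 0.23 at day 7 and by -0.87 ± 0.24 at day 12, where the adjusted p was 0.0801. At day 12, 8 members were lower without overlap, H2-Oa being the exception, against 10.7% of all genes. H2-Ob and Ciita, counted among the 8, were within background on both days. With array weights 3 members passed at day 7, 7 at day 12 and 7 at day 18.

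Other readouts differed between the same days in the fluid. The 3′ to 5′ beta-actin log2 ratio was 2.02 to 3.61 at day 18, against 1.59 to 2.39 at day 3, and all 4 arrays of day 7 lay between 2.69 and 2.90. The value of 3.61 belonged to day 18 replicate 1, the array lowest in class II genes, and the part of RNA length in the class II values by day was not tested. Fibroblast markers summed to 8067 to 8322 at day 18, against 1558 to 2365 at day 3, and 4 of 7 were higher past the threshold, among them Col1a2 by 2.58 ± 0.28 and Pdgfra by 2.24 ± 0.33. Monocyte and macrophage markers summed to 15775 to 19206 at day 18, against 16413 to 24309 at day 3, and limma called 0 of 14 in either direction, with 3 at an unadjusted p under 0.05. B cell markers summed to 991 to 1181 at day 18, against 883 to 1228 at day 3. The part of these cells in the class II change was not tested. Cd86 was lower at day 18 than at day 3 by 1.39 on the log2 scale (difference -1.39 ± 0.20, adjusted p = 0.00054). Its mean over the fluid was within background, so the size of this difference is not measured. Ifi30, a thiol reductase of antigen processing, was lower as well (-1.32 ± 0.33, adjusted p = 0.0395). The receptor Il4ra differed by -1.40 ± 0.34 (adjusted p = 0.0335), and Il4 by -1.24 ± 0.32 (adjusted p = 0.0492) within background. The cathepsins did not pass.

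**Figure D4:**
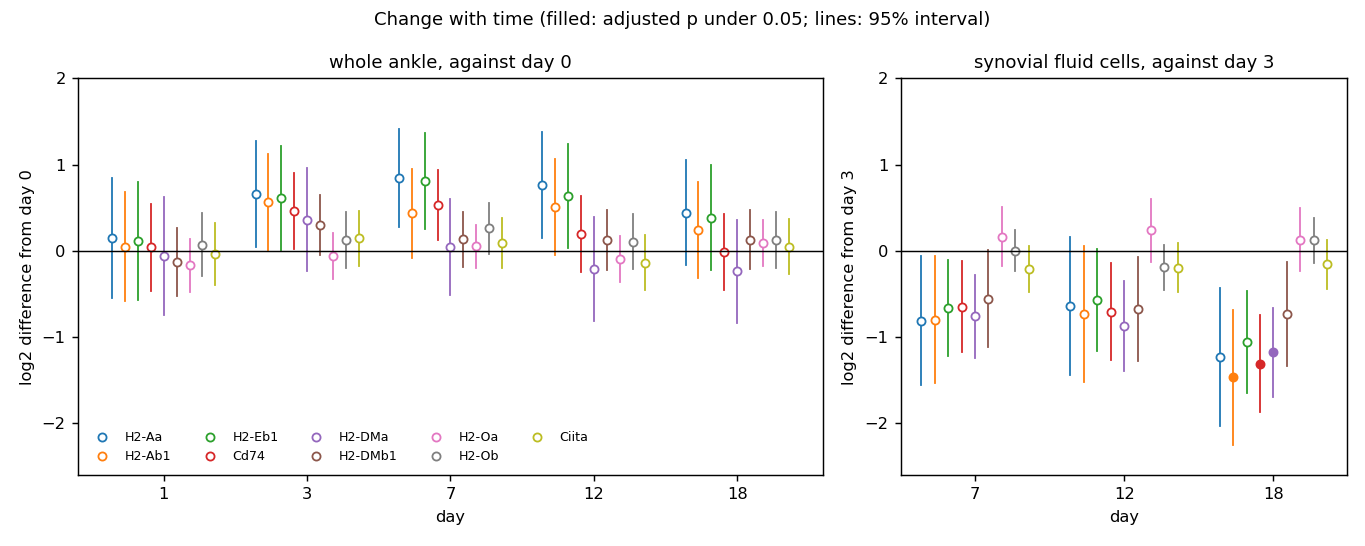
Log2 differences of the 9 genes (y axis) by day (x axis), for whole ankle against day 0 on the left and synovial fluid cells against day 3 on the right. Circles are limma estimates, filled where the adjusted p was under 0.05, and lines are 95% intervals. The filled circles are Cd74, H2-DMa and H2-Ab1 in fluid at day 18, and no circle is filled in ankle, where H2-Aa and H2-Eb1 at day 7 are highest at 0.84 and 0.81.

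In the ankle, no class II gene passed the test on any day, although the class II chains had their highest means at days 3 to 12. Limma called 0 of the 9 genes at days 1, 3, 7, 12 and 18 against day 0, where 0.00%, 0.230%, 6.73%, 3.24% and 2.01% of all genes passed, and 0, 4, 3, 2 and 0 members had an unadjusted p under 0.05. At day 7, H2-Aa read 10.63, 10.07, 9.40 and 9.67, against 9.31, 9.36, 8.94 and 8.80 at day 0. The groups did not overlap, and the difference was 0.84 ± 0.27 (95% interval 0.27 to 1.41, limma adjusted p = 0.0728). H2-Eb1 read 9.92, 9.43, 8.87 and 9.12 at day 7, against 8.67, 8.60, 8.45 and 8.38 at day 0, a difference of 0.81 ± 0.27 (adjusted p = 0.0798). Cd74 differed by 0.53 ± 0.19 (adjusted p = 0.123), also without overlap. H2-Ab1, the remaining class II chain, differed by 0.44 (limma adjusted p = 0.381), with overlap. H2-Ob, within background, differed by 0.26 (adjusted p = 0.354). Over days 3, 7, 12 and 18 in order, 2, 3, 2 and 1 members were higher without overlap, against 2.82%, 4.01%, 4.58% and 6.16% of all genes.

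With array weights, with quantile normalization repeated within the ankle, and with a block for replicate number, H2-Aa, H2-Eb1 and Cd74 passed at day 7. The main fit treated the arrays as unpaired, and whether equal replicate numbers mark pairs was not settled. H2-Aa alone passed without day 7 replicate 3 (1.02, adjusted p = 0.0422). H2-DMa (0.04), H2-DMb1 (0.13), H2-Oa (0.05) and Ciita (0.09) were close to day 0 at day 7, with 95% intervals that held 0. The mean of H2-Aa, H2-Ab1, H2-Eb1 and Cd74 was highest on replicate 1 on each ankle day, with 8.32, 8.33, 9.32, 9.39, 9.13 and 8.53 over days 0, 1, 3, 7, 12 and 18 in order. Replicate 1 of days 7 and 12 also carried the liver transcript Alb, at 8.41 and 10.65, as did replicate 1 of days 0 and 1 (8.95 and 6.39), where the other ankle arrays had 5.19 or less. Without those 4 arrays H2-Aa differed by 0.68 at day 7 (adjusted p = 0.158).

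Other genes in the ankle did change over the same days. Of 14 monocyte and macrophage markers, 3 were higher at day 7, namely Msr1 by 1.29 ± 0.17, Ccr2 by 1.17 ± 0.24 and Fcgr1 by 0.65 ± 0.14. The means of Ccr2 and Fcgr1 at day 7 were under 6.85. So was the day 0 mean of Msr1, whose highest ankle value on any array was 7.79. The size of its difference is therefore not measured. Msr1, a scavenger receptor, passed on each day from 3 to 18. Neutrophil markers summed to 3002 to 4692 at day 7, against 965 to 995 at day 0. The part of these cells in the class II values was not tested. Of 11 B cell markers, limma called 0 at days 3, 7, 12 and 18, with 0, 1, 1 and 1 at an unadjusted p under 0.05. Among the processing genes, Ctss, the cathepsin that completes Cd74 cleavage in B cells and dendritic cells, was higher at day 7 (1.08 ± 0.32, adjusted p = 0.0472). Cst3 was lower at day 7 (-1.31 ± 0.25), day 12 (-1.15 ± 0.27) and day 18 (-1.20 ± 0.27). Il4ra (1.13 ± 0.27) and the kinase Jak2 (0.49 ± 0.14) were higher at day 7, Jak2 being within background. Of the 8 promoter factors limma called 0 on any day, with 0, 0, 0, 1 and 0 at an unadjusted p under 0.05 at days 1, 3, 7, 12 and 18. Of the 9 class I genes it called 0 as well, with 0, 1, 0, 0 and 3.

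In blood, limma called 0 of the 9 genes at days 1, 3, 7, 12 and 18 against day 0, where 0.00% of all genes passed on each day, and 1, 0, 0, 1 and 3 members had an unadjusted p under 0.05. The highest blood values of most members fell at day 18, which had 2 arrays. H2-DMa read 10.47 and 10.83 at day 18, against 10.05, 10.29 and 9.95 at day 0, a difference of 0.56. H2-Aa read 12.29 and 12.50 at day 18, against 11.68, 12.13 and 11.88 at day 0, a difference of 0.50. Neither passed (adjusted p = 0.22 for H2-DMa and 0.226 for H2-Aa). H2-Ob had the widest range of the members in blood, and its day 7 arrays read 8.62, 6.72 and 6.72.

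The change after serum, taken as the mean of days 3, 7, 12 and 18 minus day 0, was compared between ankle and blood by an interaction. Limma called 0 of the 9 genes, where 4.12% of all genes passed, and 4 members had an unadjusted p under 0.05. H2-Aa changed by 0.68 in ankle and by 0.07 in blood, a difference of 0.61 ± 0.28 (adjusted p = 0.243). H2-Eb1 (0.59 ± 0.27), H2-Ab1 (0.58 ± 0.28) and Cd74 (0.47 ± 0.22) gave adjusted p between 0.231 and 0.255. A difference of the change between the tissues was not shown for any member at this threshold.

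The members varied together to different degrees. Correlations with the mean of H2-Aa, H2-Ab1, H2-Eb1 and Cd74 are descriptions, and points share tissue, preparation and normalization, and these 4 genes are part of that mean. Within the 13 fluid arrays H2-DMa had r = 0.92 and H2-DMb1 r = 0.86, within the 19 ankle arrays 0.63 and 0.51, and within the 17 blood arrays 0.76 and 0.79. H2-Oa and H2-Ob had r = 0.16 and -0.39 in fluid, -0.0008 and -0.06 in ankle, and 0.68 and 0.14 in blood. In blood, where the group means of both chains of H2-DO were above background, H2-Oa thus followed the class II mean more closely than H2-Ob did. Some single blood arrays of H2-Ob were below the negative control level, the lowest at 6.72, so its r is partly read within background.

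Among genes that are no members and above background, those most like the class II mean over the 16 group means were Plac8 (r = 0.99), Itgb7 (0.98), Psmb9 (0.98), Birc3 (0.98) and Irf8 (0.98). Within the ankle they were Lst1 (0.92), Ifi30 (0.88), Tyrobp (0.87), Cmc2 (0.85) and Evl (0.85). Within the fluid they were Pnp (0.97), Gnb2 (0.95), Ifi30 (0.94), Plcg2 (0.93) and Ddx54 (0.93). Within blood they were Capg (0.83), Pim3 (0.79), Cd83 (0.78), Trp53inp2 (0.77) and Birc3 (0.76). Ifi30, the reductase of antigen processing, was named in both ankle and fluid.

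The second probe set of H2-DMa lay between 7.14 and 8.02 in fluid, 7.13 and 7.92 in ankle and 8.04 and 8.80 in blood. Every fluid and ankle array was below every blood array on it, and the medians of fluid (7.48) and ankle (7.44) nearly coincided. A probe set shared by H2-DMb1 and H2-DMb2 lay between 5.75 and 8.19 in fluid, 5.36 and 7.24 in ankle and 6.86 and 8.21 in blood, and cannot be given to either gene. H2-DMb1 and H2-DMb2 are near-identical neighbours, and the H2-DMb1 values may hold signal of both.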

How the data were processed

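Expression was measured on 49 Affymetrix arrays. Per the submitters' processing notes the deposited intensity values were made by the authors with RMA, on a linear scale, with no version stated. Array medians lay between 57.7 and 64.1, and replicates correlated at r from 0.941 to 0.995. Of 12488 probe sets, 10833 had 1 symbol in the platform annotation, 396 several and 1259 none or were controls. Genes were read from their probe set with the highest mean. Of 8251 genes, 48.5% stayed at or below the negative control level in every group mean.

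Differences were tested on log2 intensity with limma 3.58.1 in R 4.3.3 (lmFit, eBayes with trend), within each tissue, or over both tissues compared, with Benjamini-Hochberg adjustment over all genes and a threshold of 0.05. The fits were checked on simulated data. The labels speak of biological replicates for blood alone, so elsewhere p-values measure the spread between samples, which may be technical. The labels give SDS and urea extraction for ankle in one field and Trizol in another. One ankle array of day 0, replicate 2, carries a second short name in its description. Array number limits the precision.

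The members, gene lists, tests and promoter letters were chosen with earlier results of these data known. The text names all members, up to 4 genes of a pathway list with the smallest p in a comparison (Cst3 against ankle was named after its value was seen), and the 5 genes most like the mean of H2-Aa, H2-Ab1, H2-Eb1 and Cd74 by Pearson r. Alternatives were quantile normalization anew, median centring, a floor, removal of dim genes, array weights, robust eBayes, the mean of all probe sets, a replicate block, 1 fit of all 49 arrays, beta-actin ratio as covariate, subsets by preparation, leaving out the 4 ankle arrays with Alb and leaving out each array. Python 3.11.15 drew the figures.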

Additional observations from a re-analysis of the deposited data

Results flagged for a closer look

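Ciita on ankle day 0 replicate 2 had a log2 value of 5.8350, against 6.28 to 6.33 on the other 3 arrays of its group. Its gap to the nearest array was 0.894 of the group's range, above Dixon's 95% critical value for 4 arrays. Of 27 groups of arrays tested over the members this was the 1 found, where chance gives about 1 in 20. The value is within background.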

How the results depend on the processing

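The counts for fluid against blood and ankle day 0 against blood day 0 kept within 1.5 times under all alternatives run. With array weights 1 member passed in ankle at day 3 and 3 each at days 7, 12 and 18, 3, 7 and 7 in fluid at days 7, 12 and 18, 1 and 3 in blood at days 12 and 18, and 4 in the interaction. Quantile normalization anew gave 3 in ankle at day 7. One fit of all 49 arrays gave 2 in ankle at day 7, 1 in fluid at day 12 and 6 in fluid at day 18. The replicate block gave 3 in ankle at day 7 (H2-Aa 0.00127, H2-Eb1 0.00448, Cd74 0.0432, adjusted p) and 1 at day 12 (H2-Aa 0.0225), and no other count moved past 1.5 times with it. Same-numbered arrays deviated together (r over 0.1) in 26 of 41 pairs in ankle (median r 0.20, against -0.11 for other numbers). They did so in 7 of 18 pairs in fluid and in 25 of 40 in blood (median r 0.19, against -0.13 for other numbers). These values do not settle whether equal numbers mark pairs. The main fits treated the arrays as unpaired. Fluid isolated during dissection alone gave 0 at day 18, and the beta-actin ratio as a covariate gave 3 in fluid against ankle. Leaving out 1 array gave 0 to 1 in ankle at day 7 (1 without day 7 replicate 3), 0 to 1 in fluid at days 7 and 12 (1 without day 3 replicate 3), and 0 to 2 in fluid at day 18. Over single genes and settings, 3095 results kept their side of the threshold, 64 newly passed and 18 no longer passed. The sign turned in 97, of which 0 passed in either setting, with reported differences of at most 0.34. The causes were not tested.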
